A study of Mus musculus with 6 samples.

Results

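Wnt ligands, their Frizzled receptors and co-receptors, and the secreted proteins that restrain or amplify them were described in endometriosis-like lesions of mice. The genes were chosen with earlier results of these data known. The rule used symbols alone: every Wnt, Fzd, Sfrp, Dkk and Rspo gene, with *Frzb*, *Wif1*, *Lrp5*, *Lrp6*, *Ror1*, *Ror2* and *Ryk*. This gave 48 of 41786 listed genes, namely 19 ligands, 10 Frizzled receptors, 5 co-receptors, 6 ligand-binding antagonists, 4 Dickkopf (Dkk) genes and 4 R-spondin (Rspo) genes.

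The lesions came from female C57BL/6 mice in which uterine tissue of a GFP-positive (B6-GFP) donor aged 6 weeks had been stitched inside the abdomen, on the peritoneum of a wild-type recipient aged 8 weeks, with estrous cycles matched. From 3 days after implantation the recipients were given vehicle daily, or niclosamide by mouth at 200 mg/kg body weight per day, for 3 weeks, and lesions were taken in diestrus. The labels also place necropsy at 3 weeks after implantation, so the exact length of dosing is unclear. The study asked how niclosamide, an anthelmintic drug, affects such lesions, with 3 stranded RNA-seq libraries per group. Vehicle 1 pooled the RNA of 4 mice and each other library came from 1 mouse, so the p-values measure the spread between 2 single animals and a pool on the vehicle side. The tissue is a graft cut from a recipient's abdominal wall, and donor and recipient transcripts are counted together.

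Wnt proteins are lipid-modified signals that act over short distances. In the beta-catenin branch they bind a Frizzled receptor together with LRP5 or LRP6, while in the beta-catenin-independent branches ligands such as WNT5A act through ROR or RYK co-receptors on cell shape and movement. Secreted frizzled-related proteins (Sfrp, Frzb) and WIF1 bind the ligands, Dickkopf proteins block the LRP co-receptors, and R-spondins keep Frizzled receptors at the surface. In the uterus, *Wnt7a* is an epithelial gene, *Wnt5a* a stromal one and *Wnt4* is needed for decidualization.

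Of the 48 genes, 38 had enough reads to be tested and 10 did not. Of the 38, 36 had at least 10 counts in every library, and the others were *Wnt10a* and *Sfrp5*. The 10 genes left out were *Wnt1*, *Wnt3*, *Wnt3a*, *Wnt8a*, *Wnt8b*, *Wnt9b*, *Dkk1*, *Dkk4*, *Rspo2* and *Rspo4*, none with more than 11 counts in any library. *Wnt3a*, *Wnt8a* and *Dkk4* each had 0 counts over the vehicle group and 1 over the niclosamide group. Library totals ran from 27797121 to 34797000 counts, and a count of 0 allows up to 3 counts, or 0.0862 to 0.108 CPM (counts scaled to library size). These limits use the library totals themselves, while all other CPM values use adjusted library sizes.

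Levels between genes were compared as CPM per kilobase of exon (CPM per kb), and levels of 1 gene between libraries as CPM. The antagonists that bind Wnt ligands stood at the top. *Sfrp4* averaged 139 CPM per kb ± 35.9 (SD, n = 3) with vehicle and 114 ± 44.2 with niclosamide, and *Sfrp1* 73.5 ± 27.3 and 79.5 ± 36.0. The 6 genes of that class summed to 228 to 302 CPM per kb in the vehicle libraries and 172 to 312 in the niclosamide libraries. All 19 ligands together summed to 60.4 to 93.3 and 41.1 to 73.5. Next in level were *Fzd1*, *Dkk3* and *Ryk*, at 41.0 ± 2.70, 39.0 ± 3.45 and 37.2 ± 2.66 CPM per kb with vehicle, values that did not differ beyond their spread.

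**Figure D1:**
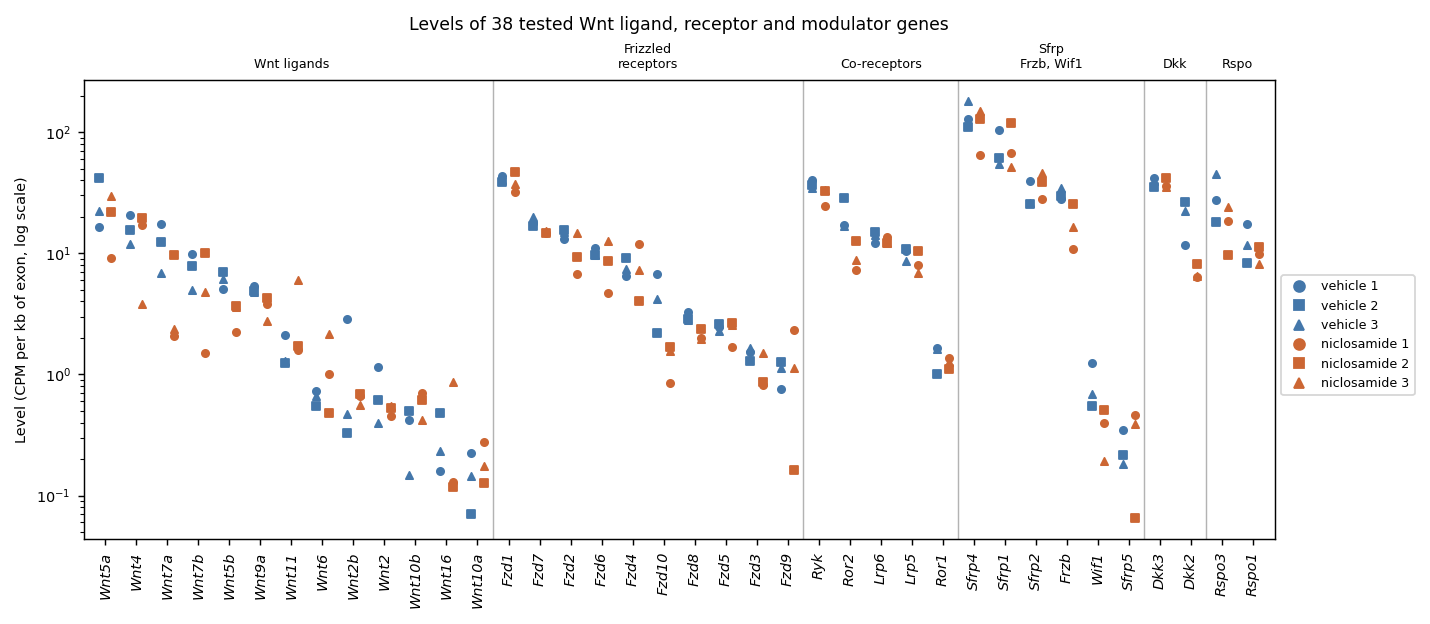
Level of each of the 38 tested genes in the 6 libraries (CPM per kb of exon, log scale), ordered within class by the mean over all libraries; blue marks vehicle, orange niclosamide and the marker shape the replicate number. *Sfrp4* and *Sfrp1* lie highest, and *Fzd9*, *Sfrp5* and *Wnt11* show a library far from the rest of its group.

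No gene passed edgeR's test of niclosamide against vehicle after adjustment. In edgeR's quasi-likelihood fit, adjusted over 17364 genes (Benjamini-Hochberg), 0 members had an adjusted p under 0.05, against 0.0% of all genes tested, and the members' adjusted p-values ran from 0.521 to 0.998. limma-voom also called 0 members, and DESeq2 called 1, *Dkk2*, lower, against 0.583% of 17670 genes called lower and 0.424% higher by that tool. At an unadjusted p under 0.05, 7 of the 38 tested members were lower (18.4%) against 3.55% of all genes, and 0 were higher against 3.37% (6.92% of all genes in either direction). The 7 were *Dkk2*, *Ror2*, *Wnt5b*, *Fzd10*, *Fzd8*, *Fzd7* and *Frzb*. The count was 4 without vehicle 1, without vehicle 3 or without niclosamide 1. The share over all genes at that threshold was not taken in those fits. *Dkk2*, *Fzd10*, *Ror2* and *Wnt5b* had an unadjusted p under 0.05 in all 14 alternative fits.

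Most tested members lay below 0 on the log2 scale. Of the 38, 28 had a negative log2 fold change (73.7%) against 46.3% of all genes, and the members' median was -0.29 against 0.02 over all genes. In 10 members every niclosamide library lay below every vehicle library (26.3%), against 6.37% of all genes. In 0 members every niclosamide library lay above, against 5.9%. Members are not replicates of the treatment, and these shares describe the 6 libraries.

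**Figure D2:**
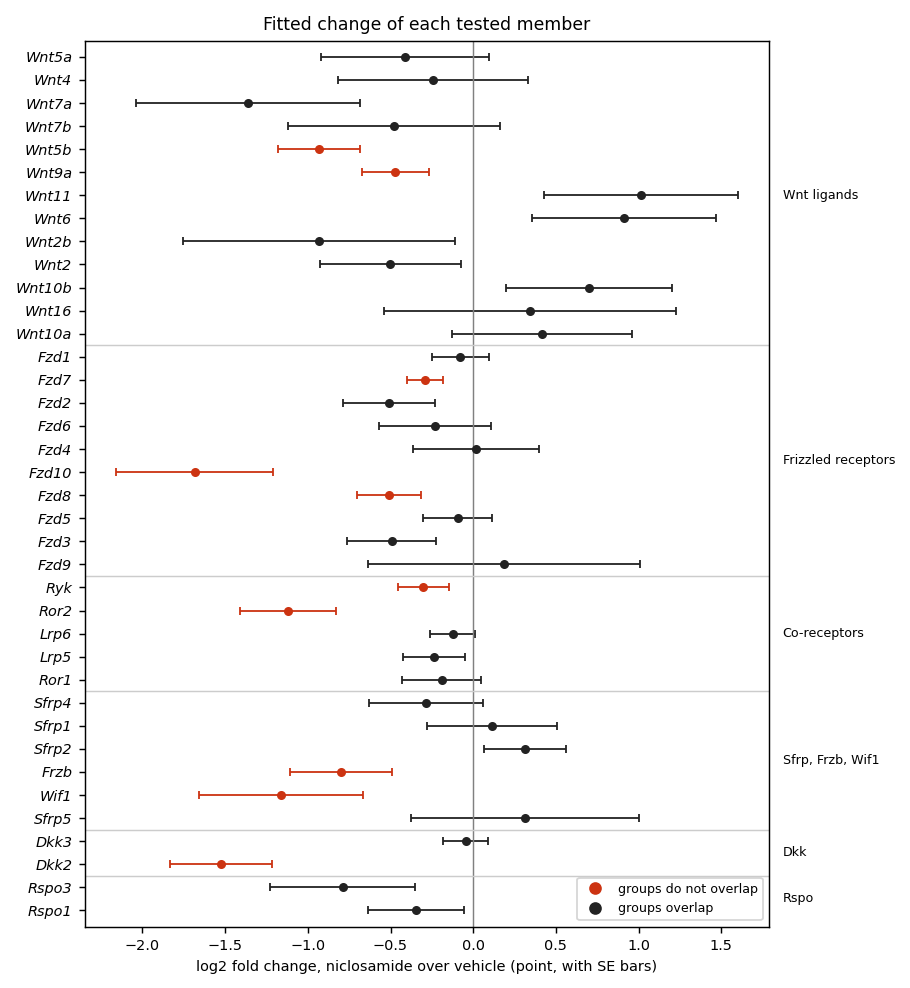
Log2 fold change of niclosamide over vehicle for each tested gene, with SE bars from edgeR's quasi-likelihood fit; red marks the 10 genes whose groups did not overlap. All 10 lie left of 0, from *Fzd10* at -1.68 to *Fzd7* at -0.29, and the estimates to the right of 0 have groups that overlap.

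Marker genes of several cell types also differed between the groups. Summed smooth muscle markers were at 6882 to 9663 CPM with vehicle and 2273 to 5986 CPM with niclosamide, and 8 of 10 were lower without overlap. Neutrophil markers summed to 445 to 902 and 246 to 371 CPM, with 5 of 9 lower without overlap. T and NK cell markers summed to 381 to 452 and 619 to 909 CPM, with 10 of 14 higher without overlap. B and plasma cell markers summed to 1237 to 1643 and 2106 to 4267 CPM, with only 1 of 8 higher without overlap. Over all genes tested, 6.37% were lower without overlap and 5.9% higher. Stroma and epithelium sums overlapped between groups, and skeletal muscle markers, from the recipient's wall, ran from 936 CPM in niclosamide 2 to 37941 in niclosamide 1. No marker in these lists was at 0 counts in any library. The part of these cell types in the results was not tested, and in bulk tissue fewer cells of a type and less RNA per cell cannot be told apart.

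Upstream sequence is shown for 3 of the members with an unadjusted p under 0.05, chosen because the window lay clear of their own annotated exons. RefSeq promoter entries on GRCm38.p6 were matched for 32 of the 48 members. Each line gives 200 bases, from 250 to 51 before the start, 5′ to 3′ on the gene's strand, with capitals marking a TCF/LEF core (CTTTGA or CTTTGT) or a GC box (GGGCGG) on either strand.
Dkk2: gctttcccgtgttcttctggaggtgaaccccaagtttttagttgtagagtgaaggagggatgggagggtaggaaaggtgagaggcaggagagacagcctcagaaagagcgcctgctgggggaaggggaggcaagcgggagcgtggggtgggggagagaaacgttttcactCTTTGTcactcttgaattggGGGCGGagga
Ror2: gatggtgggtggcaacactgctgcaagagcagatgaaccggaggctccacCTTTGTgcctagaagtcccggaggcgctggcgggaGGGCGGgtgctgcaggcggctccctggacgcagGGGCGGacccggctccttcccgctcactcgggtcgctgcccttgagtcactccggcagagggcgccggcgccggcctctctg
Fzd7: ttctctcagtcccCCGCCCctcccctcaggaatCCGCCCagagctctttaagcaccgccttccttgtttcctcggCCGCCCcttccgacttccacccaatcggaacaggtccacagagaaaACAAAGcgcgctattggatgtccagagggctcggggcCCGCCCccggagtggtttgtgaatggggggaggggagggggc
The windows are chr3:132085042-132085241 (+ strand), chr13:53286175-53286374 (- strand) and chr1:59481897-59482096 (+ strand). Each held 1 TCF/LEF core, the recognition letters of the factors that beta-catenin binds, and 1, 2 and 4 GC boxes. Over all 32851 windows of that length, 23.4% held a TCF/LEF core and 24.6% a GC box, while of 35 member windows 9 held a TCF/LEF core and 22 a GC box. A STAT palindrome (TTCNNNGAA) was in 0 of these 3 windows, in 2 of the 35 member windows (1 of *Frzb* and 1 of the 3 windows of *Wnt5b*) and in 5.76% of all windows. These matches describe letters only, and binding was not measured.

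Among the antagonists, *Dkk2* had the smallest p of all members. It encodes a Dickkopf protein that binds LRP5 and LRP6, and lies on chromosome 3 at 132085242 to 132180304 in the files' GRCm38.p3 annotation. Its levels were 44.5, 99.6 and 85.1 CPM in vehicle 1 to 3 and 24.3, 30.8 and 24.5 CPM in niclosamide 1 to 3. The groups did not overlap, and the pooled library was the lowest of the vehicle group. The vehicle mean was 2.88-fold the niclosamide mean in the fit, a log2 fold change of -1.52 ± 0.31 (SE, edgeR adjusted p = 0.52). DESeq2 gave an adjusted p of 0.0039. With each library left out in turn the log2 fold change stayed between -1.80 and -1.29.

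*Dkk3*, a divergent Dickkopf family member that is not a typical LRP antagonist, had the higher level of the pair. It was at 148, 124 and 140 CPM with vehicle and 126, 149 and 124 CPM with niclosamide. These values overlapped almost completely (log2 fold change -0.05 ± 0.14). As a share of the summed Dkk level per kb, *Dkk2* made up 21.8% to 42.7% in the vehicle libraries and 15.1% to 16.2% in the niclosamide libraries. The summed Dkk level was 53.7 to 62.2 CPM per kb with vehicle and 41.6 to 50.3 with niclosamide.

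The ligand-binding antagonists did not move as a group. *Frzb*, also known as the Sfrp family member SFRP3, was at 81.7, 85.9 and 101 CPM with vehicle and 31.5, 74.3 and 48.5 CPM with niclosamide, without overlap (log2 fold change -0.80 ± 0.31, edgeR adjusted p = 0.68). *Wif1*, a rare transcript here, was at 2.77, 1.24 and 1.54 CPM with vehicle and 0.884, 1.14 and 0.435 CPM with niclosamide, again without overlap (-1.16 ± 0.50, adjusted p = 0.74). The margin for *Wif1* was 1.14 against 1.24 CPM, between niclosamide 2 and vehicle 2.

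The 3 abundant Sfrp genes overlapped between groups. *Sfrp4* was at 225.99, 194 and 316 CPM with vehicle and 114, 224 and 264 CPM with niclosamide, with niclosamide 1 alone under the vehicle range. *Sfrp1* was at 471, 277 and 243.1 CPM with vehicle and 303, 539 and 229 CPM with niclosamide, so that the pooled vehicle library and niclosamide 2 stood above the other 4. *Sfrp2* was at 105, 69.2 and 69.8 CPM with vehicle and 75.7, 103 and 124 CPM with niclosamide. Their log2 fold changes were -0.29 ± 0.34, 0.11 ± 0.39 and 0.31 ± 0.25. *Sfrp1* changed sign without vehicle 3 and without niclosamide 2. *Sfrp5* stayed at or below 0.884 CPM in every library.

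**Figure D3:**
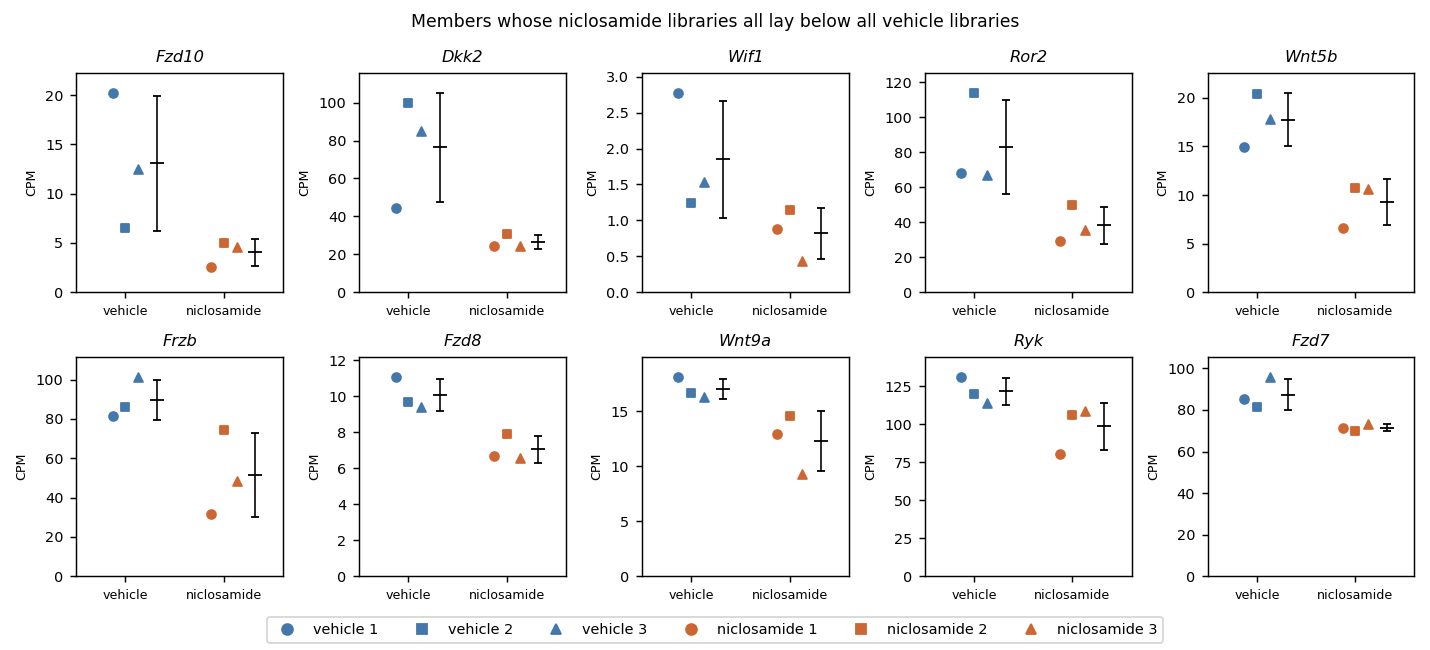
CPM of the 10 genes whose groups did not overlap, in order of fold change; points are libraries, shapes the replicate numbers, and black bars the mean with SD of 3 libraries. The gap between groups is wide for *Wnt5b* and *Ror2* and narrow for *Wif1* and *Ryk*.

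Of the receptors that bind Wnt directly, *Fzd10* showed the lowest log2 fold change of all members. It was at 20.2, 6.56 and 12.5 CPM with vehicle and 2.52, 5.04 and 4.63 CPM with niclosamide (chromosome 5, 128601106 to 128604093). The vehicle libraries spread over a wider range than the distance between vehicle 2 and niclosamide 2. The log2 fold change was -1.68 ± 0.48 (edgeR adjusted p = 0.60, DESeq2 adjusted p = 0.056), and -2.01 to -1.23 with libraries left out. *Fzd7* was higher in level and tighter, at 85.3, 81.2 and 95.7 CPM with vehicle and 71.1, 70.0 and 73.2 CPM with niclosamide (-0.29 ± 0.11, adjusted p = 0.68). *Fzd8* was at 11, 9.67 and 9.40 CPM with vehicle and 6.66, 7.91 and 6.56 CPM with niclosamide (-0.51 ± 0.19, adjusted p = 0.68).

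The other 7 Frizzled genes overlapped between groups. *Fzd1*, which made up 38.5% to 51.4% of the summed Frizzled level per kb in the 6 libraries, was at 192, 168 and 178 CPM with vehicle and 139, 205 and 165 CPM with niclosamide. Its niclosamide libraries lay on both sides of the vehicle range. *Fzd2* was at 47.8, 56.1 and 54.2 CPM with vehicle and 24.6, 33.5 and 52.9 CPM with niclosamide, with niclosamide 3 inside the vehicle range and the other two below it (-0.51 ± 0.28). *Fzd4*, a receptor also known from blood vessels, had 88 CPM in niclosamide 1 and 29.8 CPM in niclosamide 2 against 47.4 to 66.7 with vehicle. *Fzd3*, *Fzd5*, *Fzd6* and *Fzd9* had log2 fold changes of -0.49, -0.09, -0.23 and 0.19. The summed Frizzled level per kb was 99.8 to 107 with vehicle and 77.8 to 95.9 with niclosamide.

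Among co-receptors, *Ror2* was lower in the niclosamide libraries while *Lrp5* and *Lrp6* overlapped. *Ror2*, a receptor tyrosine kinase-like protein that binds WNT5A (chromosome 13, 53109317 to 53286109), was at 67.9, 114 and 67.2 CPM with vehicle and 29.2, 50 and 35.4 CPM with niclosamide. Every niclosamide library lay under every vehicle library. The vehicle mean was 2.17-fold the niclosamide mean in the fit, a log2 fold change of -1.12 ± 0.29 (edgeR adjusted p = 0.59, DESeq2 adjusted p = 0.078). Leaving out each library gave -1.37 to -0.82. *Ror2* made up 20.9% to 31.0% of the summed co-receptor level per kb with vehicle and 13.3% to 18.2% with niclosamide. All 5 co-receptors together summed to 76.0 to 92.1 CPM per kb with vehicle and 55.0 to 68.8 with niclosamide.

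*Ryk*, an atypical kinase that also binds Wnt ligands, was at 131, 120 and 114 CPM with vehicle and 80.6, 106 and 109 CPM with niclosamide (-0.30 ± 0.15, adjusted p = 0.79). Niclosamide 3 was close to vehicle 3, and niclosamide 1 stood apart. *Lrp6* was at 115, 142 and 133 CPM with vehicle and 129, 115 and 114 CPM with niclosamide (-0.13 ± 0.13). *Lrp5* and *Ror1* had log2 fold changes of -0.24 ± 0.19 and -0.19 ± 0.24, and their groups overlapped. Missing the threshold does not show that these groups were equal.

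The ligand transcripts were dominated by few genes. *Wnt5a* was the highest on average at 26.9 CPM per kb ± 13.2 with vehicle and 20.2 ± 10.3 with niclosamide, followed by *Wnt4* at 16.1 ± 4.41 and 13.6 ± 8.53. Next with vehicle was *Wnt7a* at 12.2 ± 5.23, with 4.73 ± 4.33 in the niclosamide group, then *Wnt7b* at 7.59 ± 2.49 and 5.45 ± 4.31. Neighbours in this order did not differ beyond their spread. *Wnt5a* made up 20.1% to 44.8% of the summed ligand level in the vehicle libraries and 22.4% to 51.2% in the niclosamide libraries, while *Wnt4* made up 42.0% in niclosamide 1 and 6.63% in niclosamide 3.

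**Figure D4:**
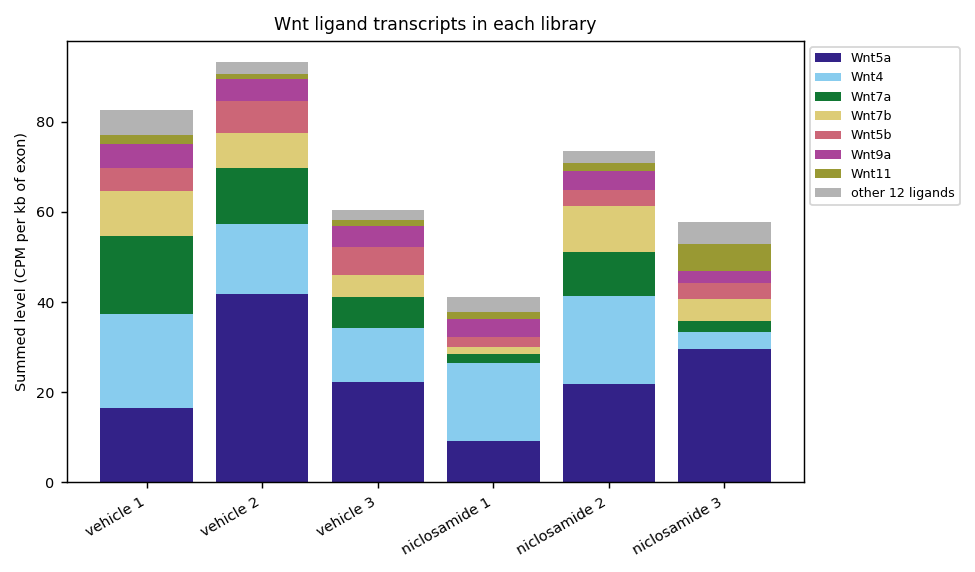
Summed Wnt ligand level per library (CPM per kb of exon), stacked by gene for the 7 ligands with the highest mean, with the other 12 in grey. *Wnt5a* is the largest block in vehicle 2, vehicle 3, niclosamide 2 and niclosamide 3, and *Wnt4* in vehicle 1 and niclosamide 1; niclosamide 1 has the lowest sum, 41.1.

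*Wnt5b*, the close relative of *Wnt5a*, was the ligand with the smallest p. It was at 14.9, 20.4 and 17.9 CPM with vehicle and 6.59, 10.7 and 10.6 CPM with niclosamide (chromosome 6, 119432531 to 119544824). The groups lay apart, with a log2 fold change of -0.93 ± 0.25 (edgeR adjusted p = 0.59, DESeq2 adjusted p = 0.084), and -1.06 to -0.74 with libraries left out. *Wnt9a* was at 18.1, 16.7 and 16.3 CPM with vehicle and 12.9, 14.6 and 9.33 CPM with niclosamide, without overlap (-0.47 ± 0.20, adjusted p = 0.74). *Wnt5a* itself was at 115, 290 and 155 CPM with vehicle and 64.0, 151 and 205 CPM with niclosamide, a range within each group wider than the difference between them (-0.41 ± 0.51). Without vehicle 2 its log2 fold change was 0.05.

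The ligands of the uterine epithelium are given beside the epithelial markers of each library. Those 15 markers, keratins, claudins, *Epcam*, *Cdh1* and others, summed to 2992, 1893 and 1460 CPM in vehicle 1 to 3 and 555, 3829 and 873 CPM in niclosamide 1 to 3. *Wnt7a* was at 54.9, 39.4 and 21.7 CPM with vehicle and 6.59, 30.9 and 7.59 CPM with niclosamide. Its lowest 2 libraries, niclosamide 1 and 3, were also the lowest 2 in the epithelial sum. Niclosamide 2 had the highest epithelial sum, while *Wnt7a* there lay below vehicle 1 and vehicle 2. The log2 fold change was -1.36 ± 0.68 (edgeR adjusted p = 0.78), and without niclosamide 2 it was -2.46. *Wnt7b* was at 43.9, 34.7 and 22.0 CPM with vehicle and 6.70, 44.4 and 21.1 CPM with niclosamide, with the same highest and lowest libraries as the epithelial sum (-0.48 ± 0.64). The part of epithelial content in these values was not tested.

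*Wnt4*, which both stroma and epithelium can express, followed another order. It was at 79.2, 59.5 and 45.6 CPM with vehicle and 66.0, 75.1 and 14.6 CPM with niclosamide. Niclosamide 3 alone was low, and without it the log2 fold change was 0.21 in place of -0.24 ± 0.57.

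**Figure D5:**
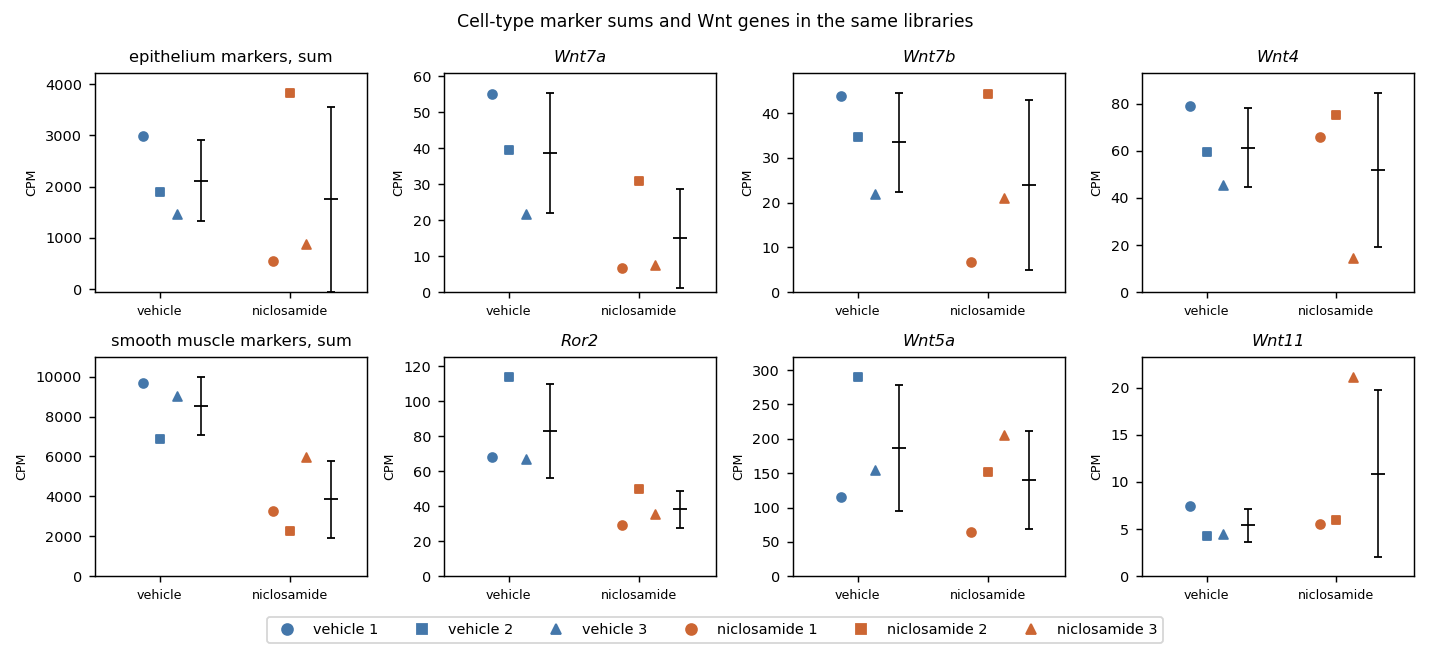
CPM of summed epithelial and smooth muscle markers beside 6 Wnt genes, with points for libraries and bars for the mean with SD of 3 libraries. *Wnt7a* and *Wnt7b* are lowest in niclosamide 1, where the epithelial sum is 555 CPM, and *Wnt11* is highest in niclosamide 3, at 21.1 CPM.

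Several low ligands had positive estimates. *Wnt11* was at 7.40, 4.31 and 4.46 CPM with vehicle and 5.57, 5.93 and 21.1 CPM with niclosamide, *Wnt6* at 1.68, 1.26 and 1.54 and then 2.35, 1.11 and 4.98 CPM. Both were highest in niclosamide 3 and had groups that overlapped, with log2 fold changes of 1.01 ± 0.59 and 0.91 ± 0.55. *Wnt16* showed the same library on top, with 4.51 CPM in niclosamide 3 and 0.618 to 2.50 CPM in the others. That library also had the highest levels of the uterine position genes *Hoxa10* and *Hoxa11*, at 334 and 217 CPM against 113 to 206 and 65.5 to 119 CPM with vehicle. Niclosamide 1 and 2 were the lowest for both genes, at 55.2 and 62.5 CPM for *Hoxa10* and 25.3 and 46.5 CPM for *Hoxa11*. Of the other stroma markers, *Hand2*, *Pdgfra*, *Thy1* and *Col3a1* were also highest in niclosamide 3, *Pdgfrb* was lowest there and the rest peaked elsewhere. *Wnt2b* was high in the pooled vehicle 1 only, at 10.2 CPM against 1.18 to 2.44 in the other 5 libraries.

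The ligand genes include 4 pairs of close neighbours on a chromosome, and within each pair the levels differed or both were near 0. *Wnt9a* and *Wnt3a* lie 16.1 kb apart on chromosome 11, at 59306849 to 59333552 and 59248036 to 59290751. *Wnt9a* ran from 2.75 to 5.33 CPM per kb in the 6 libraries, and *Wnt3a* had 1 count in all. *Wnt6* and *Wnt10a* lie 6.7 kb apart on chromosome 1 and ran from 0.48 to 2.16 and from 0.07 to 0.28 CPM per kb. *Wnt10b* was detected at 0.15 to 0.70 CPM per kb while its neighbour *Wnt1*, 9.86 kb away on chromosome 15, had 3 counts over the vehicle group and 2 over the niclosamide group. *Wnt9b* and *Wnt3*, 24.4 kb apart on chromosome 11, were both too low to test.

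R-spondins were represented by *Rspo3* and *Rspo1*. *Rspo3* was at 65.7, 43.4 and 108 CPM with vehicle and 44.6, 23.1 and 57.7 CPM with niclosamide (-0.79 ± 0.44, adjusted p = 0.82). *Rspo1* was at 32.5, 15.4 and 21.9 CPM with vehicle and 18.5, 21.2 and 15.2 CPM with niclosamide (-0.35 ± 0.29, adjusted p = 0.93). Both pairs of groups overlapped, and the vehicle libraries of *Rspo3* alone spread from 43.4 to 108 CPM. Without vehicle 1 the estimate for *Rspo1* was -0.03.

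The remaining machinery of the pathway was read from 4 further lists, none of whose genes passed edgeR's adjusted threshold. Over all genes tested, 46.3% lay below 0, and at an unadjusted p under 0.05 3.55% were lower and 3.37% higher. Of 19 tested genes for Wnt export and receptor turnover, 14 lay below 0 (73.7%, against 46.3% of all genes) with a median of -0.21, against 0.02 over all genes. At an unadjusted p under 0.05, 4 were lower (21.1%, against 3.55%) and 1 higher (against 3.37%). *Gpc4*, a heparan sulfate carrier at the cell surface, was at 77.2, 60.3 and 75.2 CPM with vehicle and 43.0, 51.6 and 41.1 CPM with niclosamide. *Lgr6*, a receptor for R-spondins, was at 16.6, 62.5 and 22.7 CPM with vehicle and 5.51, 11.8 and 3.20 CPM with niclosamide, and DESeq2 called it lower (adjusted p = 0.033, edgeR adjusted p = 0.60). *Notum* and *Trabd2b*, which both inactivate secreted Wnt, had log2 fold changes of -1.24 ± 0.46 and -0.91 ± 0.34. The 1 higher gene was *Kremen2*, which encodes a receptor for Dickkopf proteins, at 0.328, 0.385 and 0.314 CPM with vehicle and 0.884, 0.556 and 0.498 CPM with niclosamide (0.90 ± 0.37). The highest log2 fold change of the list was that of *Ndp*, a ligand of FZD4, at 1.98 ± 1.24, with 16.5 CPM in niclosamide 3 and 0.525 to 1.57 CPM in the other 5 libraries. The acyltransferase *Porcn* and the carrier *Wls*, needed to make and release every ligand, had -0.56 ± 0.27 and -0.07 ± 0.16.

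Inside the cell, the beta-catenin gene itself overlapped between groups. *Ctnnb1* was at 811, 747 and 773 CPM with vehicle and 694, 953 and 724 CPM with niclosamide (0.02 ± 0.19). Of 30 genes of the beta-catenin cascade, 21 lay below 0 (70.0%, against 46.3% of all genes), with a median of -0.12 against 0.02. At an unadjusted p under 0.05, 4 were lower (13.3%, against 3.55% of all genes) and 0 higher (against 3.37%). The 4 were *Bcl9l*, *Tcf7l1*, *Dvl3* and the feedback inhibitor *Axin2*, with log2 fold changes of -0.40, -0.54, -0.39 and -0.67. *Lef1*, a transcription partner of beta-catenin, was at 6.63 to 7.47 CPM in 5 libraries and at 15.4 CPM in niclosamide 3. In the planar polarity and calcium branch, to which *Ror2* and *Ryk* feed, 2 of 29 genes were lower at an unadjusted p under 0.05 (6.90%, against 3.55% of all genes) and 0 higher (against 3.37%). The list had 20 genes below 0 (69.0%) and a median of -0.13. The 2 genes were *Daam2* (-0.66 ± 0.26) and *Nfatc4* (-0.47 ± 0.19). *Ptk7* and *Celsr1* followed at -0.50 and -0.46.

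Target genes of beta-catenin were spread on both sides of 0. Of 21, 13 lay below 0 (61.9%, against 46.3% of all genes) with a median of -0.14 against 0.02. At an unadjusted p under 0.05, 5 were lower (23.8%, against 3.55% of all genes) and 0 higher (against 3.37%). *Nkd1*, *Tnfrsf19*, *Nkd2*, *Notum* and *Axin2* were the 5, and *Notum* and *Axin2* also stand in the lists above. So do *Lgr5*, *Lef1*, *Tcf7*, *Rnf43*, *Znrf3*, *Apcdd1* and *Prickle1*, so the shares of the lists are not separate observations. *Nkd1* was at 53.2, 49.7 and 47.1 CPM with vehicle and 19.6, 20.9 and 25.9 CPM with niclosamide (edgeR adjusted p = 0.50, DESeq2 adjusted p = 2.1e-06). *Tnfrsf19*, a receptor of the TNF receptor family, was at 59.4, 56.6 and 48.0 CPM and then 30.3, 31.5 and 24.6 CPM (-0.92 ± 0.15, edgeR adjusted p = 0.50, DESeq2 adjusted p = 0.0022). *Nkd2* was at 97.1, 90.3 and 92.3 CPM and then 39.5, 69.9 and 40.5 CPM. Over the same list *Myc*, *Ccnd1*, *Cd44* and *Dact1* had log2 fold changes of 0.03, 0.10, 0.20 and 0.03. *Nkd1*, *Nkd2*, *Notum* and *Axin2* encode proteins known to dampen Wnt signalling.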

How the data were processed

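RNA of lesions was measured by stranded RNA-seq in 6 libraries, 3 per group. Vehicle 1 pooled the RNA of 4 mice and each other library came from 1 mouse. Groups and replicate numbers were taken from the sample titles. The deposited files hold raw counts for each gene symbol. Per the file headers, featureCounts 1.4.6-p4 summed exon reads by gene in its reverse-stranded mode (2), with no option for multi-mapping or overlapping reads. The submitters' processing notes list STAR 2.4.2a, Trimmomatic 0.33, edgeR 3.12.0, bcl2fastq 1.8.4 and the build GRCm38.p3.

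Genes were kept by filterByExpr (minimum count 10, minimum total 15), scaled by TMM and tested in edgeR 4.0.16 (R 4.3.3) by a robust quasi-likelihood fit with group as its only term. Adjustment was Benjamini-Hochberg over 17364 genes, with a threshold of 0.05. SE was taken as |log2 fold change| divided by the root of the F statistic. CPM uses TMM-scaled library sizes, and exon length is the one in the files. Limits for counts of 0 cover counting error only and use library totals without TMM scaling. Alternatives were RLE and upper-quartile scaling, DESeq2 1.42.0, limma-voom (limma 3.58.1), no filter, a filter of CPM 1 in 3 libraries, an adjusted p under 0.10, the replicate number as a block, and each library left out. The fit was tested on simulated data, with 50 genes changed at each of 4 sizes. It recovered 1 and 3 of 50 at log2 fold changes of -1 and 1. At -2 and 2 it recovered 32 and 41 of 50. Of its 89 calls, 12 were false. A change of 1 on the log2 scale would thus mostly be missed.

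DESeq2 was first given the filterByExpr genes and called 195 genes. After those calls were seen, its input was changed to every gene with a count, with DESeq2's own filter, to match earlier processing of these data, and it called 178. The second is quoted in the results, and *Dkk2* was the 1 member called by both. The counts of members below 0, past an unadjusted p, or without overlap were also added after the data were seen.

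The members, lists and tests were chosen with earlier results of these data known. Values per library are given for the 3 members of each class with the highest level, for those with an unadjusted p under 0.05 or groups without overlap. From each pathway list up to 4 genes with the smallest p are named, some with their fold change alone, plus *Axin2*, *Lef1*, *Nkd1*, *Ctnnb1*, *Porcn* and *Wls*. Other genes given with values were chosen after their values were seen. Spearman correlations between libraries ran from 0.948 to 0.967. Marker sums for macrophages, endothelium, mesothelium, adipocytes and nerve overlapped between groups.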

Additional observations from a re-analysis of the deposited data

How the results depend on the processing

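The count of genes with an adjusted p under 0.05 was 0 in the fit reported, 178 by DESeq2 on every gene with a count, 195 by DESeq2 on the filterByExpr genes (the input used first and replaced after its calls were seen) and 1 without a filter on low counts, and 0 under each other alternative, an adjusted p under 0.10 included. The count of members called was 0 except under both DESeq2 runs, with 1 each, *Dkk2* (adjusted p = 0.0039 and 0.0026). With a library left out, 4 to 10 members were lower at an unadjusted p under 0.05 and 0 to 1 higher. The 1 was *Wnt6*, without niclosamide 2. The shares over all genes at that threshold were not taken in these fits, so these counts have no background beside them. With a library left out, every niclosamide library lay below every vehicle library in 11 to 14 of the 38 tested members. The share over all genes was then 9.61% to 14.6%. With all libraries it was 10 members (26.3%), against 6.37% of all genes. The median member log2 fold change was -0.38 to -0.18 over all alternatives. Signs were checked only for the 3 highest members of each class and those with an unadjusted p under 0.05 or without overlap. Among these members, signs turned with a library left out for *Dkk3* (0.0088 without vehicle 1 and 0.015 without niclosamide 3, range -0.15 to 0.015), *Fzd1* (0.039 without niclosamide 1, range -0.25 to 0.039), *Sfrp1* (-0.06 without vehicle 3 and -0.33 without niclosamide 2, range -0.33 to 0.46), *Wnt4* (0.21 without niclosamide 3, range -0.63 to 0.21) and *Wnt5a* (0.049 without vehicle 2, range -0.78 to 0.049). The cause was not tested. The scalings moved the median of all genes from 0.02 to 0.01 and 0.03.

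The replicate numbers of the titles name no shared animal, litter or day. Same-numbered libraries had deviations correlated at -0.08, -0.09 and 0.27, and not every library correlated best with its own number. With the replicate number as a block, 0 genes and 0 members were called. In that fit 8 members were lower at an unadjusted p under 0.05 and 0 higher, and the share over all genes was not taken. Of the 38 members, 31 lay below 0, against 50.4% of all genes. The median member log2 fold change was -0.31, against -0.0022 over all genes. The 10 members left out by the filter, with at most 11 counts in any library, were not compared, and the tested *Wnt10a* and *Sfrp5* rest on 5 to 16 and 4 to 26 counts per library.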
